A study of Mus musculus with 6 samples.

Results

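Transcripts of 6 genes of the neurotrophin system, taken by symbol from the 48401 gene symbols listed for each library, were measured in dorsal root ganglia, which hold the cell bodies of sensory neurons. They encode the neurotrophins brain-derived neurotrophic factor (Bdnf) and neurotrophin-3 (Ntf3), the receptor tyrosine kinases TrkB (Ntrk2) and TrkC (Ntrk3), the shared neurotrophin receptor p75 (Ngfr) and the sorting receptor sortilin (Sort1). All 6 were found and all 6 passed the filter on low values. Bulk RNA libraries had been made from L4/5 ganglia of male C57BL/6J mice aged 8 weeks that had received small interfering RNA intrathecally, that is, into the fluid of the spinal canal. The siNC group, taken here as the control, and the siCLAP group, whose siRNA is named for the long intergenic noncoding RNA CLAP, held 3 libraries each. The labels state neither the dose, the time after injection nor whether each library came from its own mouse, so a p-value speaks only of the spread among these 6 libraries.

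Neurotrophins are secreted growth factors that keep sensory neurons alive during development and set their sensitivity in the adult. BDNF binds TrkB and NT-3 binds TrkC, and binding starts Ras and MAP kinase, PI3 kinase and phospholipase C signalling inside the cell. The p75 receptor binds all neurotrophins, and together with sortilin it binds their uncleaved proforms. In the ganglion TrkC marks proprioceptors and other large myelinated neurons, TrkB marks touch-sensitive neurons, BDNF is made by part of the peptide-containing nociceptors, and p75 is made by neurons and by glia.

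Depth ran from 21386768 to 46317735 total expected counts per library. Defining sensory neuron transcripts were abundant, as the summed level of Prph, Isl1, Pou4f1, Avil, Tubb3, Snap25 and Rbfox3 was 9146 to 9375 TPM in siNC and 9501 to 9779 TPM in siCLAP (TPM is a level per gene length and per library total). Markers of central glia were low, with summed levels of 3.91 to 5.15 TPM in siNC and 4.55 to 5.91 TPM in siCLAP, nearly all of it Aqp4, and Olig2 was listed at 0 in 5 of 6 libraries. Skeletal muscle markers summed to 1.56 to 2.09 TPM in siNC and 1.57 to 3.25 TPM in siCLAP. Of 6 tested leptomeningeal markers, from the membranes around the cord, 0 passed edgeR's test described below (smallest adjusted p = 0.0560). At an unadjusted p under 0.05 in that test 5 of the 6 were lower, against 8.75% of all genes tested. Their summed level was 27.7 to 131.9 TPM in siNC and 9.35 to 22.4 TPM in siCLAP, and their part in the results below was not tested. In bulk samples fewer cells of a type and less RNA per cell cannot be told apart. Whether siCLAP lowered CLAP was not tested here.

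Of the members, 3 had siNC and siCLAP libraries that did not overlap in normalised CPM (counts scaled to library size and composition), namely Ntf3, Bdnf and Ntrk2. The same held for 21.5% of all tested genes, and none of the 3 passed edgeR's test described below. The sequence ahead of 1 annotated transcription start of each is given. The sequences are RefSeq's for GRCm38.p6, the assembly also called mm10, and each runs 5′ to 3′ over the 250 bases before the start. Capitals mark matches on either strand to the motifs searched.
Ntf3, chr6:126164961-126165210, reverse strand: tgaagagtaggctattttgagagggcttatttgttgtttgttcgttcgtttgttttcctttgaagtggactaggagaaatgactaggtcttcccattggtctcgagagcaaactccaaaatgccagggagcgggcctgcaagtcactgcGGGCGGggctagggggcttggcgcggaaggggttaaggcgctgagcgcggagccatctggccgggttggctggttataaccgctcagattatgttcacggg
Bdnf, chr2:109692186-109692435, forward strand: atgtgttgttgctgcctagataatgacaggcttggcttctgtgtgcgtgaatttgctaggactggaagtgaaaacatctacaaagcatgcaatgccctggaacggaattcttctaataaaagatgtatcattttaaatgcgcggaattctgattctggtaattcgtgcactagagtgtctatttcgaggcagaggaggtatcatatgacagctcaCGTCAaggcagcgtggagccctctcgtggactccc
Ntrk2, chr13:58806319-58806568, forward strand: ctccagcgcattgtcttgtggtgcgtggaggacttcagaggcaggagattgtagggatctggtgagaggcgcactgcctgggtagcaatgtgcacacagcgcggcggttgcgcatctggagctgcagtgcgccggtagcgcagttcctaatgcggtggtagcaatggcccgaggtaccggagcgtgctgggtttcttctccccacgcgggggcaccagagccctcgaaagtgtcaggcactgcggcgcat
RefSeq windows were found for 4 of the 6 members, with 7 windows for Bdnf, 2 for Ntf3 and 1 each for Ntrk2 and Ngfr. The Ntf3 window shown holds 1 GC box (GGGCGG), at 101 bases before the start, a motif present in 32.7% of the 32851 windows of the same length. The Bdnf window, the third of its 7 along the chromosome, was picked after the motif search as the one that holds 1 half-site of the cAMP response element (TGACG, here on the opposite strand as CGTCA) at 35 bases before the start, a match found in 17.8% of windows. Of the other Bdnf windows the second and the fourth hold 2 and 1 GC boxes, and the remaining 4 hold none of the motifs. The other Ntf3 window, which overlaps an annotated Ntf3 exon and is not shown, holds 1 GC box and 1 E-box. The Ntrk2 window holds none of the motifs searched, which also comprised the full cAMP response element (TGACGTCA, in 1.55% of windows, which contains the half-site), the E-box CACGTG (6.02%) and the TATA box TATAAA (12.4%). The Ngfr window, which overlaps an Ngfr exon and is not shown, holds 4 GC boxes. Gene-level counts do not show which start a Bdnf or Ntf3 transcript used.

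Levels differed far more between the genes than between the groups. Ngfr stood at a mean of 649 TPM over the 6 libraries, within the top 0.857% of the 19141 genes tested. Ntrk2 followed at 42.1 TPM, Sort1 at 28.6 TPM, Bdnf at 22.4 TPM and Ntrk3 at 13.0 TPM. Ntf3 was the scarcest at 1.82 TPM, where 90.1% of tested genes were as high or higher. This order was the same in each of the 6 libraries. The ranges of neighbours overlapped for Sort1 (26.7 to 30.9 TPM) and Bdnf (20.4 to 26.9 TPM), although Sort1 was the higher within each library, by 1.07 to 1.41 times. Ngfr exceeded Ntrk2 by 14.3 to 17.9 times within a library, and Ntrk3 exceeded Ntf3 by 4.87 to 11.5 times. For the TPM of Ntrk2, a gene with both full-length and truncated, kinase-lacking products, a gene-level value does not separate the forms.

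**Figure D1:**
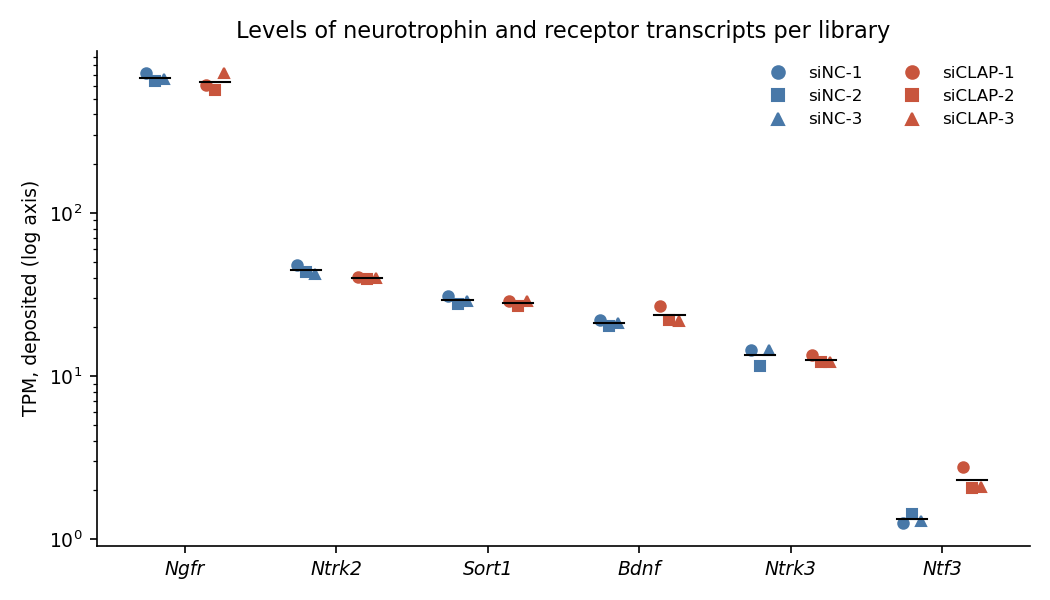
Deposited TPM (log axis) of the 6 genes in each library, ordered by mean level, with siNC in blue and siCLAP in red, symbols for the replicate number and a bar at each group mean. Ngfr lies at 565 to 716 TPM and Ntf3 at 1.26 to 2.76 TPM, with the other 4 genes between them.

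Whether siCLAP altered these transcripts was read from a fit over all genes. Of the 6 members 0 changed in edgeR's quasi-likelihood test at an adjusted p under 0.05, a threshold that 0.293% of all 19141 tested genes passed, and DESeq2 called 0 of the 5 members to which it gave an adjusted p. At an unadjusted p under 0.05 stood 3 of 6 members, against 17.0% of all genes, with 2 members higher (8.22% of all genes) and 1 lower (8.75%). Likewise 3 of 6 had groups that did not overlap in normalised CPM, against 21.5% of all genes, and of these Bdnf did overlap in TPM. Both ligands had higher estimates in siCLAP and all 4 receptor genes had lower ones, and a difference between ligands and receptors was not tested. Apart from Ntf3, the fitted changes were at most 1.14-fold, and the intervals of 2 SE around these 5 changes spanned folds from 0.843 to 1.27 (siCLAP over siNC). In a simulation with the depth and spread of these libraries, genes above 2 CPM were given a change, 50 at each fold. Of these, 36% were recovered at 1.25-fold, 80% at 1.5-fold and 100% at 2-fold and at 3-fold. The test also called 25 of 18941 unchanged genes, a larger share of its calls than the threshold of 0.05 aims at. No gene at the level of Ntf3 was given a change, so recovery there was not tested.

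The neurotrophin-3 gene Ntf3 lies on chromosome 6 (mm10, chr6:126101412-126166910, reverse strand, ENSMUSG00000049107) and no other annotated exon overlaps its exons. Its deposited counts were 24, 36.5 and 15 in siNC, and 59.5, 29.5 and 34 in siCLAP. Values of a group are listed here and below in the order of the replicate numbers. On the scale of normalised CPM (counts scaled to library size and composition) these were 0.676, 0.782 and 0.700 in siNC, and 1.54, 1.14 and 1.16 in siCLAP. All siCLAP libraries lay above all siNC libraries, and siCLAP-1 was the highest. The estimate was 1.78-fold higher in siCLAP (log2 fold change 0.83 ± 0.21 SE, n = 3 per group, edgeR adjusted p = 0.0984), a difference that did not pass. A change of this size or larger was estimated for 2.23% of tested genes. Counting error alone is wide at this depth, since the exact 95% Poisson interval ran from 0.544 to 1.08 CPM in siNC-2 and from 0.796 to 1.61 CPM in siCLAP-3, before composition scaling. The interval of siCLAP-1, 1.17 to 1.97 CPM, lay above those of all siNC libraries, of which the highest limit was 1.16 CPM in siNC-3. DESeq2 gave no adjusted p for Ntf3.

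Bdnf, the ligand of TrkB, lies on chromosome 2 (chr2:109674700-109727007, forward strand, ENSMUSG00000048482), where the antisense gene Gm45346 overlaps its exons on the other strand. Since the library kit does not mark strand, reads from the pair cannot be told apart. Bdnf stood at 35.6, 33.9 and 34.3 normalised CPM in siNC. In siCLAP it stood at 44.8, 36.6 and 36.2 normalised CPM. On this scale the groups did not overlap, but the gap between siNC-1 and siCLAP-3 was narrow and siCLAP-1 stood well above the other 5 libraries. In deposited TPM the groups did overlap, with siNC-1 at 21.96 and siCLAP-3 at 21.85. The mean was 34.6 ± 0.903 CPM in siNC and 39.2 ± 4.84 CPM in siCLAP (SD, n = 3 per group), or 1.14-fold higher (log2 fold change 0.18 ± 0.08 SE, edgeR adjusted p = 0.277). Without siCLAP-1 the log2 difference was 0.07.

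Several markers of the cells that make BDNF had higher values in siCLAP. Of 5 peptidergic nociceptor markers, 0 passed edgeR's test, while 3 (Tac1, Adcyap1 and Gal) lay higher in all siCLAP libraries than in all siNC libraries and Kit lay lower, with 10.9% of all genes higher and 10.7% lower without overlap. Adcyap1, which encodes the peptide PACAP, alone of the 5 shared the high value in siCLAP-1, at 122.8 normalised CPM against 93.9 and 111.5 in siCLAP-2 and siCLAP-3. The rest of the list peaked in other libraries of that group. In replicate order, Tac1 was at 146.4, 166.2 and 137.5 normalised CPM and Gal at 7.71, 8.69 and 8.98. Calca was at 1241, 1181 and 1339 normalised CPM and Kit at 101.6, 100.4 and 109.4. The summed level of the list was 3409 to 3577 TPM in siNC and 3527 to 3880 TPM in siCLAP. Most of that sum was Calca, at a mean of 3145 TPM over all libraries, whose groups overlapped (log2 fold change 0.07 ± 0.05 SE). The part of the list in the Bdnf value was not tested. Markers of non-peptidergic nociceptors, the other main class of small sensory neurons, were lower in siCLAP. Of 6 such markers 4 fell in edgeR's test (Mrgprd, Scn11a, Plxnc1 and Gfra2), against 0.293% of all genes changed, and 6 of 6 lay lower without overlap, against 10.7% of all genes. Their median log2 fold change was −0.33, and their summed level was 1209.8 to 1298 TPM in siNC and 971 to 1035 TPM in siCLAP. Scn11a, a sodium channel of nociceptors, fell by 0.43 ± 0.05 on the log2 scale (edgeR adjusted p = 0.0204). By the same test none of the 4 passed without siCLAP-1 or without siNC-3, where the adjusted p of Scn11a reached 0.126 and that of Gfra2 0.247. Mrgprd, Plxnc1 and Gfra2 did not pass without siCLAP-2 either, nor Mrgprd without siNC-1 or Gfra2 without siNC-2. None of the 4 passed with limma on log2 TPM. Of all tested genes 0 passed without siCLAP-1 or with limma on log2 TPM, and 4 without siNC-3. The part of this list in the values of Bdnf, Ntrk2 and Ntrk3 was not tested.

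**Figure D2:**
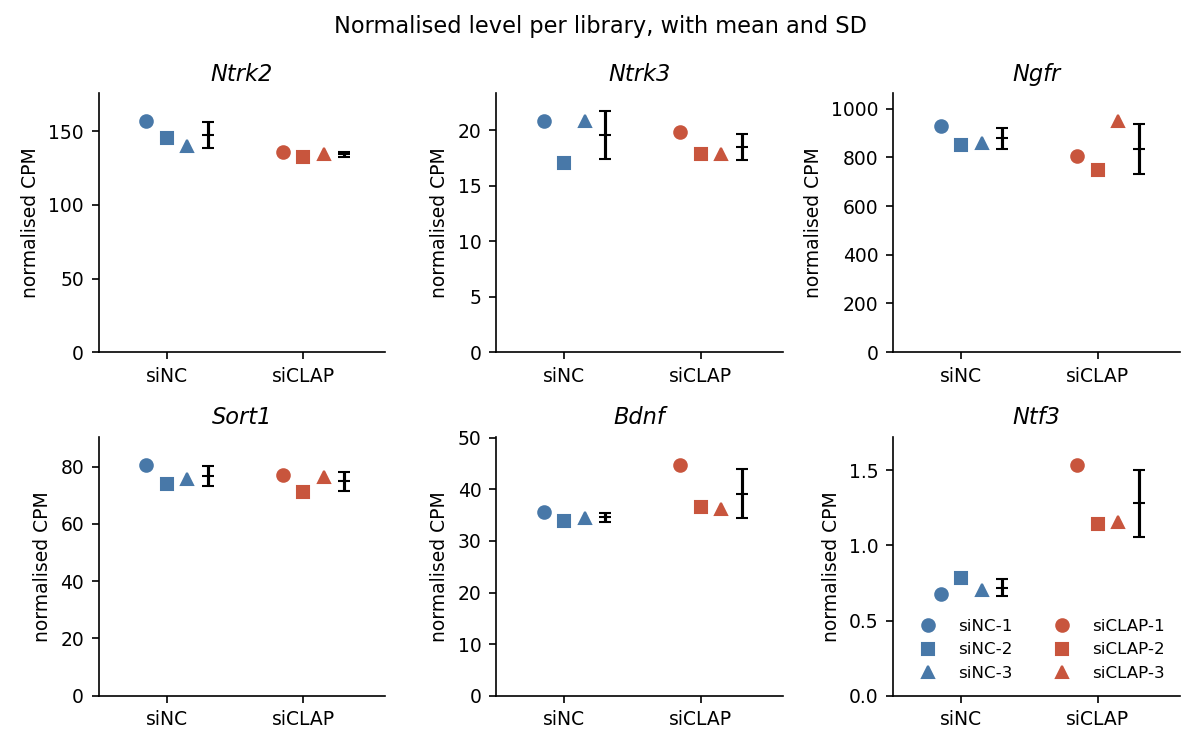
Normalised CPM of each gene per library on axes that start at 0, with siNC in blue, siCLAP in red, and the group mean with its SD (n = 3) at the right of each group. The groups are apart for Ntrk2, Bdnf and Ntf3 and overlap for Ntrk3, Ngfr and Sort1, and siCLAP-1 is the highest library for both ligands.

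Ntrk2, which encodes the BDNF receptor TrkB, lies on chromosome 13 (chr13:58806569-59133970, forward strand, ENSMUSG00000055254). It was at 156.9, 145.7 and 139.8 normalised CPM in siNC, and at 135.7, 132.8 and 134.8 normalised CPM in siCLAP. The siCLAP libraries lay close together and just below the lowest siNC library, siNC-3. The mean was 147.5 ± 8.66 CPM in siNC and 134.4 ± 1.50 CPM in siCLAP, and the log2 fold change of −0.13 ± 0.05 SE did not pass (edgeR adjusted p = 0.206). Without siNC-1, the library with the highest value, the log2 difference was −0.09. Markers of A-fibre low-threshold mechanoreceptors, among which the TrkB neurons fall, were mixed, with 5 of 7 estimates above 0 and a median of 0.01. Necab2 and Cadps2 were both at −0.08, and Calb1 and Cntnap2 were close to 0. Nefh stood at 0.21 ± 0.07 with overlapping groups. Maf stood at 0.11 ± 0.05 and was higher without overlap, as were 10.9% of all genes. In edgeR's test 1 of 7 passed (0.293% of all genes did). That marker, Shox2, a transcription factor expressed in developing TrkB neurons, rose by 0.47 ± 0.08 on the log2 scale (edgeR adjusted p = 0.0409). It passed in 9 of 17 alternatives, and not without siNC-2, siNC-3, siCLAP-1 or siCLAP-2 in turn, where edgeR's adjusted p reached 0.247, nor with limma on log2 TPM. The other cells that carry truncated TrkB include glia, and the satellite glia markers summed to 592 to 620 TPM in siNC and 653 to 671 TPM in siCLAP, while the leptomeningeal sums given above were lower in siCLAP. The part of these lists in the Ntrk2 value was not tested.

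Ntrk3 encodes TrkC, the receptor of NT-3, and lies on chromosome 7 (chr7:78175959-78738012, reverse strand, ENSMUSG00000059146). Its values were 20.8, 17.1 and 20.8 normalised CPM in siNC, and 19.9, 17.8 and 17.9 in siCLAP. The groups overlapped, with the lowest and the highest library both in siNC. The log2 fold change was −0.07 ± 0.09 SE, with an interval of 2 SE from −0.25 to 0.11 (edgeR adjusted p = 0.741). Leaving out any 1 library moved it by over 1.5 times, to between −0.16 (without siNC-2) and −0.01 (without siNC-1). Proprioceptor markers, from neurons that carry TrkC, had 6 of 6 estimates above 0 with a median of 0.26, against a median of −0.00178 over all tested genes. Only 2 of the 6, Pvalb and Whrn, were higher without overlap, against 10.9% of all genes, and 1 passed edgeR's test (0.293% of all genes did). That marker, Pvalb, a calcium-binding protein, rose by 0.45 ± 0.06 on the log2 scale (edgeR adjusted p = 0.0215). Runx3, a transcription factor needed for TrkC neurons, stood at 0.28 ± 0.12 with overlapping groups. Pvalb passed in 11 of 17 alternatives, and not without siNC-3 or siCLAP-1, where edgeR's adjusted p reached 0.126, nor with limma on log2 TPM. The summed level of these 6 markers was 442 to 497 TPM in siNC and 518 to 642 TPM in siCLAP. Whether Ntrk3 and these markers differ in response was not tested.

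Ngfr, the p75 gene, lies on chromosome 11 (chr11:95568818-95587735, reverse strand, ENSMUSG00000000120). It was at 927.8, 850.3 and 858.0 normalised CPM in siNC. In siCLAP it was at 807.1, 746.9 and 948.8 normalised CPM, so siCLAP held both the lowest and the highest library. The log2 fold change was −0.07 ± 0.08 SE, with an interval of 2 SE from −0.23 to 0.08 (edgeR adjusted p = 0.647). The value depended on single libraries, at −0.18 without siCLAP-3 and −0.00152 without siCLAP-2. Non-myelinating Schwann cells and satellite glia also make p75. Of 4 non-myelinating Schwann cell markers 0 passed edgeR's test, while Ncam1 and L1cam, both adhesion molecules, were lower without overlap (10.7% of all genes were). The other markers were Scn7a at −0.03 ± 0.04 and Gfap at 0.66 ± 0.49, with overlapping groups, and the summed level was 678 to 700 TPM in siNC and 572 to 640 TPM in siCLAP. Markers of myelinating Schwann cells had 7 of 7 estimates below 0 (median −0.16), of which Egr2, the transcription factor that drives myelination, fell by 0.76 ± 0.13 on the log2 scale (edgeR adjusted p = 0.0389). Egr2 passed in 9 of 17 alternatives, and not without siNC-1, siNC-3, siCLAP-1 or siCLAP-2 in turn, where edgeR's adjusted p reached 0.225, nor with limma on log2 TPM. Their summed level overlapped between the groups, at 3281 to 4368 TPM in siNC and 3273 to 3577 TPM in siCLAP. Satellite glia markers had 4 of 5 estimates above 0 and the higher sums in siCLAP given above, and 1 of 5 passed (0.293% of all genes did). That gene, Ednrb, an endothelin receptor, rose by 0.45 ± 0.07 (edgeR adjusted p = 0.0317), though not without siNC-1, siNC-3, siCLAP-1 or siCLAP-2 in turn, where edgeR's adjusted p reached 0.192, nor with limma on log2 TPM. Fabp7, a fatty acid binding protein, stood at 0.38 ± 0.07. The part of the 3 lists in the Ngfr values was not tested.

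Sort1, which encodes sortilin, lies on chromosome 3 (chr3:108284082-108361511, forward strand, ENSMUSG00000068747) and shares exon sequence with the antisense gene Gm12523, listed at a mean of 2.64 TPM. It stood at 80.6, 73.7 and 75.7 normalised CPM in siNC, and at 77.0, 71.0 and 76.4 in siCLAP. The groups overlapped, and Sort1 had the smallest estimate of the 6 members, −0.03 ± 0.05 SE on the log2 scale with an interval of 2 SE from −0.14 to 0.07 (edgeR adjusted p = 0.778). Its sign turned without siNC-1 (0.00706) or without siCLAP-2 (0.000822).

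**Figure D3:**
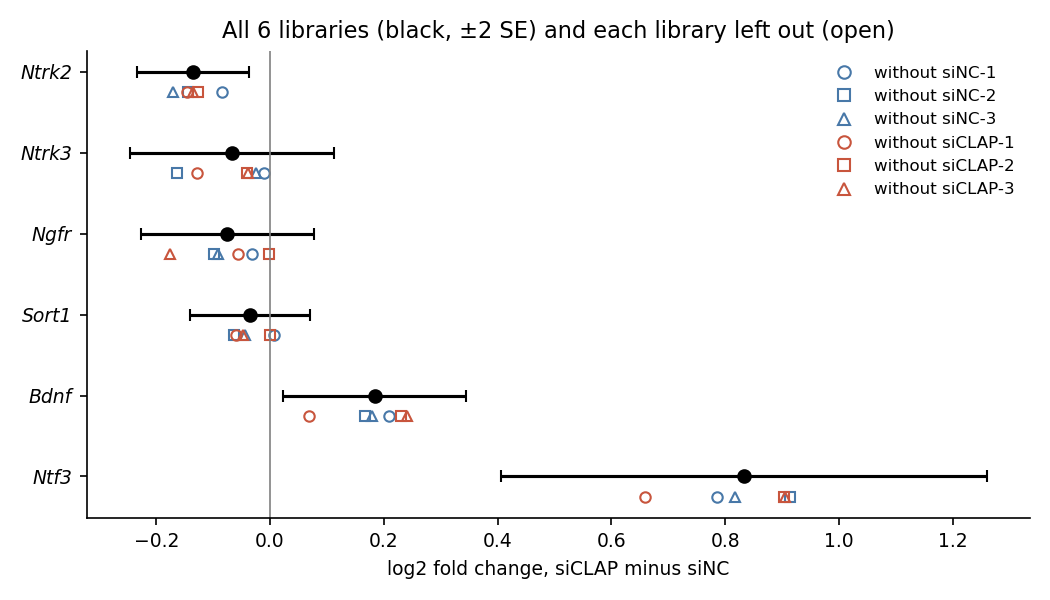
Log2 fold change of each gene (siCLAP minus siNC) with all libraries in black, bars of 2 SE, and the value with each library left out as open symbols below. Ntf3 stays between 0.66 and 0.91 and Bdnf between 0.07 and 0.24, while Ntrk2 stays between −0.17 and −0.09 and the other 3 genes approach or cross 0.

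The balance of a ligand to its receptor was read within each library as a ratio of TPM values, which removes differences in library scaling. Ntf3 amounted to 0.0871, 0.125 and 0.0902 of the Ntrk3 level in siNC, and to 0.205, 0.169 and 0.174 of it in siCLAP. The group means were 0.101 ± 0.0210 and 0.183 ± 0.0198 (SD, n = 3 per group), and the groups did not overlap. Bdnf amounted to 0.461, 0.472 and 0.499 of the Ntrk2 level in siNC and to 0.671, 0.561 and 0.546 of it in siCLAP, again without overlap. The ratio of both receptors to each other overlapped between the groups, at 2.94 to 3.74 times as much Ntrk2 as Ntrk3 in siNC and 2.99 to 3.30 times in siCLAP. Bdnf exceeded Ntf3 by 17.5, 14.2 and 16.3 times in siNC and by 9.75, 10.8 and 10.4 times in siCLAP. These ratios rest on the values already given, so the lack of overlap of Bdnf to Ntrk2 is not a second observation. No test was made of the ratios.

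**Figure D4:**
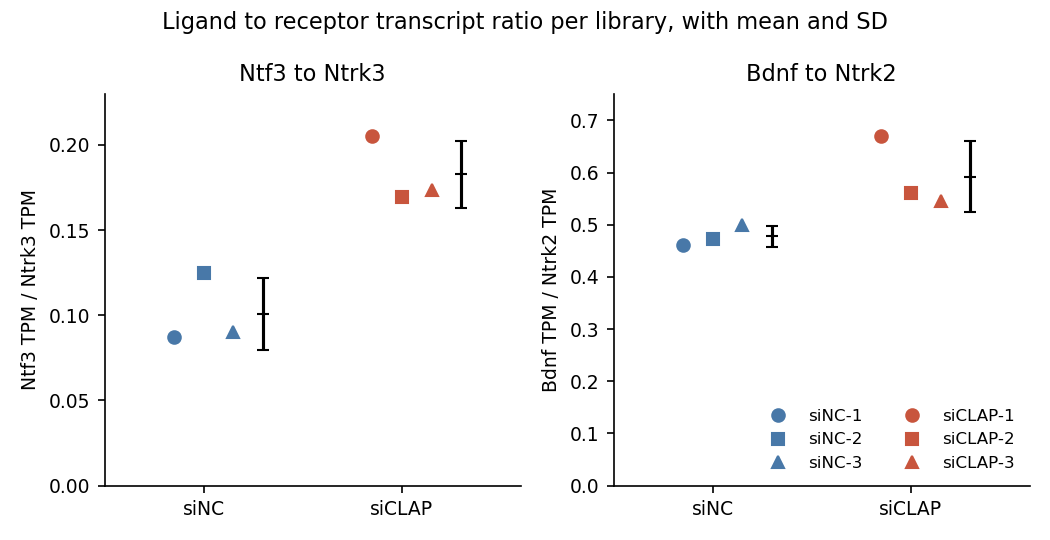
Ratio of Ntf3 to Ntrk3 TPM and of Bdnf to Ntrk2 TPM in each library, on axes that start at 0, with siNC in blue, siCLAP in red and the group mean with its SD (n = 3). Both ratios are higher in all siCLAP libraries than in all siNC libraries, with siCLAP-1 the highest.

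The remaining genes of the pathway were read from a list of 92, of which 91 were tested. Of these 0 changed in edgeR's test, 6 stood higher and 13 lower at an unadjusted p under 0.05 (20.9%, against 17.0% of all genes), and 24 (26.4%) had groups that did not overlap, against 21.5% of all genes. The median log2 fold change was −0.03, with 34 estimates above 0 and 57 below. DESeq2 called 7 of the 87 to which it gave an adjusted p, against 4.48% of the 13571 genes given one (1.76% higher and 2.72% lower), with 6 lower (Shc1, Sorl1, Foxo3, Ptprf, Dusp6 and Pik3r1) and Rab5a higher. Ntf5, the gene of neurotrophin-4 and the member of the list that was not tested, had 1 to 3 counts per library, at or below the floor of 3 counts.

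Among receptors of the sortilin family, Sorl1 stood at 486.2, 431.5 and 460.7 normalised CPM in siNC and at 389.0, 384.9 and 407.7 normalised CPM in siCLAP. These groups did not overlap (log2 fold change −0.22 ± 0.05 SE, edgeR adjusted p = 0.0800), while Sorcs1, Sorcs2 and Sorcs3 overlapped, Sorcs2 at −0.16 ± 0.15. The p75 co-receptors and adaptors had 0 of 11 genes at an unadjusted p under 0.05 and a median of −0.02. Rtn4r, the Nogo receptor that pairs with p75, stood at −0.11 ± 0.07, and Rhoa, a GTPase regulated through p75, at 0.07 ± 0.06 (0.02 without siCLAP-2 and 0.13 without siCLAP-3). Of 10 genes with a part in the cutting of proneurotrophins or p75, 9 had estimates below 0 (median −0.05). Pcsk6, a proprotein convertase, was at −0.38 ± 0.11 (edgeR adjusted p = 0.122), and Pcsk5, a relative of it, was at 0.24 ± 0.12 (0.37 without siNC-1).

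Adaptors that dock on activated Trk receptors had 15 of 18 estimates below 0, against 9668 of all 19141 genes, and a median of −0.10. At an unadjusted p under 0.05 stood 5 of 18 lower and 0 higher, against 8.75% and 8.22% of all genes. Shc1, the adaptor that links Trk receptors to Ras, was at 191.5, 192.4 and 209.5 normalised CPM in siNC, against 153.5, 148.1 and 177.3 in siCLAP. All siCLAP libraries were lower, and the log2 fold change of −0.31 ± 0.07 SE did not pass (edgeR adjusted p = 0.0765). It passed in edgeR's test without siCLAP-3, at −0.39 (adjusted p = 0.0156). With any other single library left out it did not pass. There edgeR's adjusted p ran from 0.0669 (without siNC-2) to 0.348 (without siCLAP-1), and the log2 fold change was −0.26 without siCLAP-2. Sos2, a Ras exchange factor, stood at −0.18 ± 0.05 (edgeR adjusted p = 0.141). In the Ras and MAP kinase branch 11 of 15 estimates were above 0, with a median of 0.04, and a difference from the adaptors was not tested. Rap1a, a small GTPase of sustained Trk signalling, was at 0.18 ± 0.06, and Rps6ka2, a ribosomal S6 kinase, at −0.13 ± 0.04.

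In the PI3 kinase and Akt branch 9 of 11 estimates were below 0 (median −0.04). Foxo3, a transcription factor that Akt keeps out of the nucleus, was at 108.7, 108.8 and 109.5 normalised CPM in siNC and 94.5, 90.1 and 96.1 normalised CPM in siCLAP, a difference of −0.22 ± 0.04 on the log2 scale (edgeR adjusted p = 0.0627). Pik3r1, a regulatory subunit of PI3 kinase, stood at −0.17 ± 0.05. Genes of Trk trafficking and turnover were mixed, with the phosphatase gene Ptprf at −0.19 ± 0.05 and Rab5a, of early endosomes, at 0.19 ± 0.05 (edgeR adjusted p = 0.0986 and 0.126). Transcripts induced by neurotrophin signalling were mixed too, with 6 of 10 estimates above 0 and a median of 0.11. Spry1 stood at 0.46 ± 0.15 and Dusp6 at −0.39 ± 0.10 (edgeR adjusted p = 0.165 and 0.0984), although both encode feedback inhibitors of MAP kinase signalling.

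**Figure D5:**
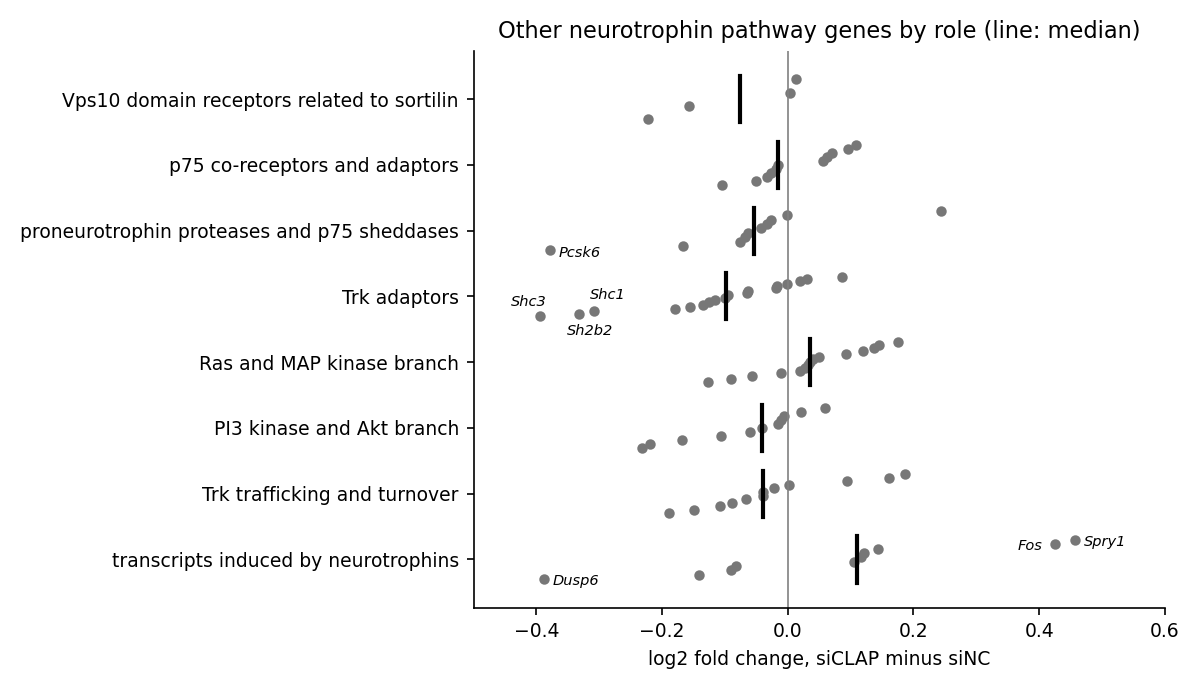
Log2 fold change (siCLAP minus siNC) of the 91 tested pathway genes by role, each point a gene and each vertical line the median of its group, with genes beyond 0.3 named. Medians run from −0.10 in the Trk adaptors to 0.11 in the transcripts induced by neurotrophins.

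The genes whose log2 normalised levels followed each member most closely over the 6 libraries were found among 12407 or 12408 genes with a mean of at least 5 TPM. For Ntf3 they were Arhgap36 and Npy1r, a neuropeptide Y receptor (Pearson r = 0.996 and 0.995), and for Bdnf Gcsh and Fitm2 (0.994 and 0.988). For Ntrk2 they were Robo2, an axon guidance receptor, and Arel1 (0.994 and 0.993), and for Ntrk3 Dhrs3 and Atad2 (0.988 and 0.987). Ngfr was followed by Ttf2 and Kank4 (0.993 and 0.989), and Sort1 by Pibf1 and Polr1a (0.996 each). With 6 points such values are common, as between 104 (Bdnf) and 384 (Ntf3) genes exceeded an r of 0.9, and the points share library depth and composition.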

How the data were processed

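Each library's deposited file lists gene symbols with a TPM value and an expected count. The submitters' processing notes name featureCounts 1.6.2, HISAT2 2.1.0, FastQC 0.11.8 and mm10, without roles. The annotation, strand setting and treatment of multi-mapping reads were not given in the sources used here. Of the deposited expected counts 66.5% were whole within 1e-06, and no member shared its counts with another gene. Groups and replicate numbers came from the sample titles.

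Expected counts were rounded and tested with edgeR 4.0.16 (R 4.3.3; quasi-likelihood, TMM scaling, no covariate) over 19141 genes (mean TPM at least 1), with Benjamini-Hochberg adjustment over all of them and a threshold of 0.05. Standard errors are the log2 fold change over the root of F, and CPM values carry the TMM scaling. An exact permutation test of 1 gene in 3 against 3 libraries is bounded at a p of 0.1, so none was run.

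The members, the pathway and marker lists and the naming rule (all members, the 2 pathway genes per role with the smallest p, the 2 genes most alike each member outside predicted genes) were chosen with earlier results of these data known. Marker genes, Ntf5, Sorcs1, Sorcs3 and Fos were named after their values were seen. The marker lists also covered fibroblasts, endothelial cells and macrophages (0 of 5, 0 of 4 and 0 of 4 changed in edgeR's test).

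Alternatives were DESeq2 1.42.0, limma 3.58.1 (voom, and log2(TPM + pseudocount)), other scalings and filters, the replicate block and libraries left out. The edgeR script was tested on counts simulated for 19141 genes. Libraries of 1 group differed by more than counting noise (mean chi-square per gene from 4.27 to 9.85), so none was counted as a repeat deposit of another, which does not show that they came from separate animals. Floors and Poisson intervals cover counting error only. Gene positions and overlaps were taken from GENCODE M21 (mm10).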

Additional observations from a re-analysis of the deposited data

How the results depend on the processing

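The count of changed members was 0 in all alternatives, although DESeq2 gave Ntf3 no adjusted p. With limma on log2 TPM and without siCLAP-1, 0 of all tested genes passed, so the count there does not speak of the members. Without siNC-3 only 4 of all tested genes passed. Adjusted p-values of Ntf3 ran from 0.0537 (edgeR without the TPM filter) to 0.416 (edgeR without siCLAP-1), of Ntrk2 from 0.145 to 0.536 and of Bdnf from 0.138 to 0.720. Ntf3 and Bdnf stayed higher and Ntrk2 and Ngfr lower in siCLAP in all 17 alternatives. Signs turned for Ntrk3 without both siNC-3 and siCLAP-2 (0.00101), for Sort1 without siNC-1 or siCLAP-2 (0.000822), its values with 1 library left out running from −0.0639 to 0.00706, and for Sorcs2 without siNC-1, with a range from −0.348 to 0.0389. Of 372 values with an adjusted p over 22 named genes and 17 alternatives, 18 passed the threshold that the main test missed, all in pathway genes.

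Changed pathway genes numbered 6 without the TPM filter, 7 with DESeq2, 1 with the replicate block (Shc1) and 0 to 4 with 1 library left out (4 without siCLAP-3, among them Fos at 0.73, and 1 without siNC-2). Changed genes overall numbered 835 without the filter (284 higher, 551 lower), 608 with DESeq2, 0 with limma on log2(TPM + 0.5), log2(TPM + 0.1) or log2(TPM + 1) (3028, 3017 and 3040 at an unadjusted p under 0.05), 203 with the replicate block, 13 without siNC-3 and siCLAP-2, and 0 to 340 with 1 library left out. Same-numbered libraries did not deviate together (r = 0.0656, 0.00766 and −0.0443), and siNC-3 correlated best with siCLAP-2 (r = 0.0869). The labels do not say whether a number pairs libraries, and such correlations cannot show how the libraries were made. The cause of these shifts was not tested. Ntf3 had 15 to 59.5 counts per library, below the level of the genes given a change in the simulation.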
